A study of Homo sapiens with 8 samples.

Results

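The T3 response at 24 h was compared with the T3 response at 6 h, gene by gene, in the Nthy-ORI cell line. For each gene the quantity was the log2 fold change of T3 over vehicle at 24 h minus the same log2 fold change at 6 h, fitted over all 8 libraries of the series. It could be tested for 14611 genes. A positive difference means a response that was higher at 24 h than at 6 h, and a negative difference one that was lower. Nthy-ORI is a line of normal human thyroid epithelium. Every group had first spent 24 h starved of hormone in medium with charcoal-stripped serum, which removes steroid and thyroid hormones. The groups then received either the NaOH vehicle or 10 nM T3, for 6 h or for 24 h, with 2 libraries of ribosome-depleted total RNA in each of the 4 groups. As described, cell line, starvation and serum were thus shared by treated and control groups, and by label the comparison is confined to 1 line. Nothing states that the replicates were separate cultures, so each p-value measures the spread between these libraries alone.

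T3, triiodothyronine, is the active thyroid hormone. It binds nuclear receptors, encoded by THRA and THRB, that sit on DNA and switch from repressing to activating many of their direct target genes when the hormone is bound. A response seen early can contain direct targets, and a later response can also contain genes that follow from the early ones, so time points are compared to see which functions move at one time, at both, or in opposite directions.

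The libraries differed far more by time than by treatment. Levels are given as CPM, counts scaled to a common library total. Pearson correlations of log2(CPM + 1) were 0.964 to 0.990 within a time and 0.713 to 0.796 between times, and 64.5% of the genes differed between vehicle at 24 h and vehicle at 6 h. The thyroid follicular marker list of 9 genes summed to 24.95 to 42.1 CPM at 6 h and to 161 to 192 CPM at 24 h, with TG and TSHR below 1 CPM in every library. CPS1, a liver enzyme of the urea cycle, stood at 2762 to 3230 CPM at 6 h and at 9.20 to 14.9 CPM at 24 h, and ALPP, placental alkaline phosphatase, at 790.3 to 1110 and at 0 to 1.04 CPM. The 10 hepatocyte markers summed to 2780 to 3256 and 19.02 to 30.3 CPM and the 8 trophoblast markers to 834 to 1167 and 29.8 to 31.1 CPM. At 6 h these sums were nearly all CPS1 and ALPP. Among other members, GATA2 stood at 23.3 to 40.55 CPM at 6 h and 1.46 to 3.14 CPM at 24 h. CGA stood at 5.54 to 18.7 CPM and ALPPL2 at 5.50 to 9.93 CPM at 6 h, both at 0 CPM at 24 h. APOB stood at 2.92 to 24.6 CPM at 6 h and 0 to 0.244 CPM at 24 h. SERPINA1 and TFAP2C went the other way, at 0 to 5.16 CPM and 0.917 to 4.37 CPM at 6 h. At 24 h these 2 stood at 8.29 to 14.4 CPM and 26.8 to 29.02 CPM. ALB, APOA1 and TTR were at 2.62 CPM or below throughout. The 9 fibroblast markers, mostly COL1A1, summed to 208 and 209 CPM with vehicle and 104 and 110 CPM with T3 at 6 h, and to 1140 and 1402 CPM and 665 and 773 CPM in the libraries labelled vehicle and T3 at 24 h. Endothelial markers summed to 1.34 CPM at most. The part of these level differences in the results was not tested. Time of treatment cannot be told apart from any other difference between the 6 h and 24 h libraries, such as one of cells or batch. In bulk RNA, a change in the share of cells and a change in RNA per cell cannot be told apart. Marker sums use plain CPM, and all gene levels below use CPM with TMM-scaled library totals. Reads counted in genes ran from 2517983 to 8201606 per library, so that 3 counts were 0.366 to 1.19 CPM. By a chi-square per degree of freedom over genes, the 24 h vehicle libraries differed most from each other, at 24.64 against 2.515 to 7.009 in the other groups. By the correlation of log2(CPM + 1), the pair labelled T3 at 24 h was lowest, at 0.977 against 0.982 to 0.990 in the other groups.

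KLF9 and HR, textbook targets that T3 induces, went against the labels at 24 h, as given below. The 24 h groups are therefore called the libraries labelled T3 and labelled vehicle, and every direction at 24 h is T3 over vehicle as labelled.

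A difference between the 2 responses was called for 269 genes (1.84% of the genes tested; edgeR quasi-likelihood test, Benjamini-Hochberg adjusted p under 0.05). The response was higher at 24 h for 124 of them (0.849%) and lower for 145 (0.992%). T3 against vehicle alone was called for 1117 genes at 6 h (7.64%), 553 higher (3.78%) and 564 lower (3.86%), and for 1948 genes at 24 h (13.3%), 816 higher (5.58%) and 1132 lower (7.75%). These shares are the background for the counts of list members given below, and a count near its share sets a list apart from nothing. Of the genes called at 1 time and not at the other, 2445 in all, only 233 also had a called difference. The other 2212 passed a threshold at 1 time without a detectable difference between the times. Genes called at both times numbered 310, which was 27.8% of the 6 h calls and 15.9% of the 24 h calls, and 282 of these went the same way. All 269 genes kept the sign of the difference in each of the 8 fits without 1 library, and 38 kept the call in all 8. The higher and lower counts of 124 and 145 became 55 and 68 without 6 h vehicle replicate 1, 30 and 51 without 6 h vehicle replicate 2, 34 and 37 without 6 h T3 replicate 1, and 22 and 27 without 6 h T3 replicate 2. They became 203 and 547 without 24 h vehicle replicate 1, and 155 and 246 without 24 h T3 replicate 1.

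The genes were sorted by these calls. A gene was placed under 6 h only when its 6 h response and the difference were called and its 24 h response was not, which held for 28 genes higher with T3 (0.192%) and 84 lower (0.575%). The mirror class, 24 h only, held 21 higher (0.144%) and 100 lower (0.684%). Another 28 genes were called at both times in opposite directions (0.192%), 13 of them higher at 6 h (0.089%) and 15 lower at 6 h (0.103%). Only 4 genes (0.0274%) went the same way by a different amount. A gene was called alike when both responses were called, went the same way, and the 95% interval of the difference lay within 1 log2 unit of 0. That held for 235 genes (1.61%), 157 higher with T3 (1.07%) and 78 lower (0.534%). The remaining 2259 genes with any call (15.5%) fitted none of these definitions.

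**Figure D1:**
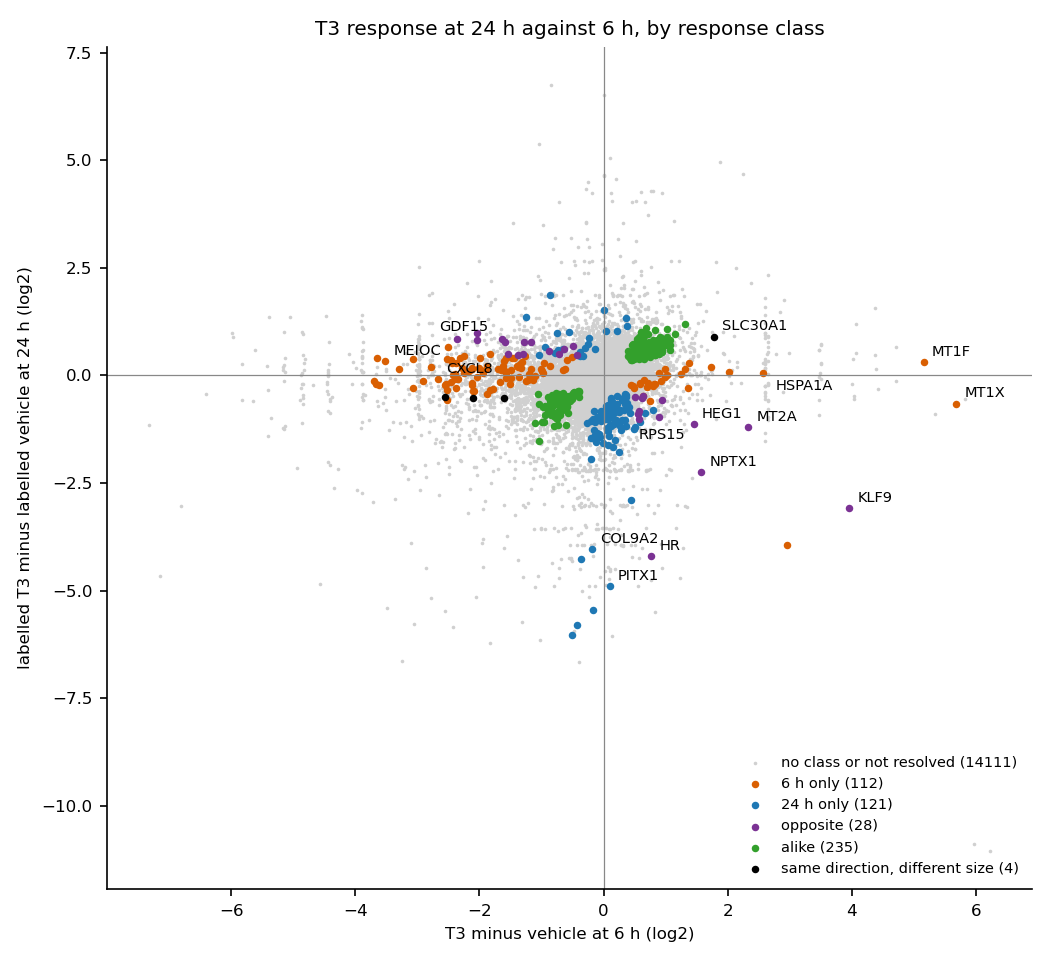
Each point is 1 of the 14611 genes tested, with its T3 response at 6 h (log2, x axis) and at 24 h as labelled (log2, y axis), coloured by response class. The 28 genes in purple lie in the quadrants of opposite sign, with KLF9 farthest from both axes, and the 235 genes in green lie near the diagonal.

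KLF9 and HR went in opposite directions at the 2 times. KLF9, a transcription factor gene on chromosome 9 (70384597 to 70414624, minus strand, GRCh38), measured 0.904 and 0.818 CPM with vehicle and 13.4 and 14.1 CPM with T3 at 6 h. At 24 h it stood at 20.8 and 31.4 CPM in the libraries labelled vehicle and at 2.79 and 3.35 CPM in those labelled T3. The groups did not overlap at either time, and the level was highest in the 24 h libraries labelled vehicle. The response was 3.95 at 6 h and -3.08 at 24 h on the log2 scale, a difference of -7.03 (SE 0.57, edgeR adjusted p = 4.08e-06), although the 6 h vehicle level rested on 5 counts over both libraries. HR, which encodes a corepressor (chromosome 8, 22114415 to 22133384, minus strand), measured 68.4 and 58.5 CPM with vehicle and 116 and 102 CPM with T3 at 6 h. It stood at 4.29 and 3.89 CPM in the 24 h libraries labelled vehicle and at 0.310 and 0.116 CPM in those labelled T3, the latter 3 counts in all. The level labelled vehicle was 20.4 times that labelled T3, with a 95% counting interval of 6.54 to 102, whereas at 6 h the T3 level was the higher one. The difference was -4.96 (SE 0.54, edgeR adjusted p = 0.000128). Both calls of a difference held whichever library was left out. Of the 16 classical targets tested, KLF9 and HR alone had a called difference (12.5%, against 1.84% of all genes tested). They were also the 2 genes of that list called higher at 6 h, against 3.78% of all genes. The list's count of 6 h rises was lower whenever a 6 h library was left out, so these rises were less stable than the differences. At 24 h 1 gene of the list was called higher and 2 lower, against 5.58% and 7.75% of all genes.

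HEG1 and NPTX1 were also higher with T3 at 6 h and lower at 24 h. HEG1, a transmembrane protein that acts at endothelial junctions (chromosome 3, 124965710 to 125055958, minus strand), had the smallest p-value of all 14611 genes. It stood at 83.2 and 89.2 CPM with vehicle and 232 and 238 CPM with T3 at 6 h, and at 268 and 292 CPM labelled vehicle and 129 and 128 CPM labelled T3 at 24 h. The treatments did not overlap at either time. Its responses were 1.45 and -1.13 and the difference was -2.58 (SE 0.17, edgeR adjusted p = 2.92e-07). NPTX1, a secreted neuronal pentraxin, stood at 21.4 and 15.96 CPM with vehicle and 55.0 and 57.3 CPM with T3 at 6 h, against 12.7 and 15.99 CPM labelled vehicle and 3.10 and 3.01 CPM labelled T3 at 24 h. Its difference was -3.81 (SE 0.35, edgeR adjusted p = 2e-05). As with KLF9, both genes kept the call in each of the 8 fits without 1 library.

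Metallothioneins rose at 6 h in 3 of 4 cases, and none of the 4 rose at 24 h. These small proteins bind zinc and copper, and their genes are switched on by the metal-sensing factor MTF1. MT1X (chromosome 16, 56682424 to 56684196, plus strand) stood at 1.81 and 2.86 CPM with vehicle and 104 and 131 CPM with T3 at 6 h. At 24 h it was near the counting floor in both groups, at 0.904 and 1.495 CPM labelled vehicle and 0.155 and 1.27 CPM labelled T3, and these overlapped. The difference was -6.34 (SE 0.85, edgeR adjusted p = 0.000849). MT1F followed the same course, with responses of 5.16 and 0.31 and a difference of -4.85 (SE 0.77, edgeR adjusted p = 0.00307). MT2A (chromosome 16, 56608199 to 56609497, plus strand) stood at 72.6 and 82.7 CPM with vehicle and 322 and 455 CPM with T3 at 6 h, and at 44.3 and 77.9 CPM labelled vehicle and 24.5 and 29.1 CPM labelled T3 at 24 h. Its responses were 2.33 and -1.20, a difference of -3.53 (SE 0.35, edgeR adjusted p = 0.000615). MT1E, the 4th metallothionein tested, stood at 4.09 to 6.44 CPM at 6 h and 21.1 to 38.4 CPM at 24 h, and its difference of -1.03 was not called (edgeR adjusted p = 0.261). Metallothionein sequences are similar, so reads can be split between these genes.

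The zinc transporter genes SLC30A1 and SLC39A10 had a called difference, and no other zinc transport gene of the list did. SLC30A1, the exporter that carries zinc out of the cell, stood at 70.8 and 76.9 CPM with vehicle and 259 and 246 CPM with T3 at 6 h, and at 109 and 124 CPM labelled vehicle and 225 and 211 CPM labelled T3 at 24 h. It rose at both times, and by less at 24 h, with responses of 1.77 and 0.90 and a difference of -0.87 (SE 0.18, edgeR adjusted p = 0.0167). SLC39A10, a zinc importer, went in opposite directions, falling by 0.49 at 6 h and rising by 0.69 at 24 h (difference 1.18, SE 0.20, edgeR adjusted p = 0.00454). In all, 5 of the 20 tested genes of the list of metallothioneins and zinc transport had a called difference, 4 lower and 1 higher. The list's median difference was 0.08, against -0.01 over all genes tested, so the list did not move as a whole. The call for SLC39A10 was lost without 6 h vehicle replicate 2 or either 6 h T3 library, and that for SLC30A1 without 6 h vehicle replicate 1 or either 6 h T3 library, with adjusted p-values up to 0.0570 and 0.116.

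The promoters of the metallothionein genes are shown because MTF1 recognises a short metal response element, whose core was searched here as TGCGCNC or TGCACNC on both strands. Of the 5 genes with a called difference, 4 had windows in RefSeq's GRCh38.p14 promoter table, and each of the 4 had a match. Windows run from 250 bases before to 50 bases after a gene's start in that table, which can differ from the start given above. The 2 windows read 5′ to 3′ along the gene, with matches in capitals.
MT1X, chr16:56682220-56682519, plus strand: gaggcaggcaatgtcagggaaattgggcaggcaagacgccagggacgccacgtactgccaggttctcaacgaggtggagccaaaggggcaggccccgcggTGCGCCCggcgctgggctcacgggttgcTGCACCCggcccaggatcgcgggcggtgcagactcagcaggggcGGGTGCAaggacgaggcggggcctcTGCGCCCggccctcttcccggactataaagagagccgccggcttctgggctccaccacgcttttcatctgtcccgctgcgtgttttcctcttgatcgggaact
MT2A, chr16:56608334-56608633, plus strand: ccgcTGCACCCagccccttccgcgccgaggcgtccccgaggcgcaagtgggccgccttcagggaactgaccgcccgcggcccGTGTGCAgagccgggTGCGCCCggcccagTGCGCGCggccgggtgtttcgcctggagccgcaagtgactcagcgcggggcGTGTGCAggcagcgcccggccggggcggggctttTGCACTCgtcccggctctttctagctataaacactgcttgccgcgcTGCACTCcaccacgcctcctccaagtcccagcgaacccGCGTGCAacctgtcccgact
MT1X held 4 matches and MT2A held 8. At least 1 match was present in 29.6% of all 35116 windows of that length, at least 4 in 0.601%, and at least 8 in 0.0199%. A match describes letters in the window and shows no binding.

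Heat shock chaperones rose at 6 h and as a group showed little response at 24 h. These proteins fold or refold other proteins, and HSF1 drives their genes when unfolded protein accumulates. At 6 h 25 of the 39 tested chaperone genes rose and none fell, while at 24 h 3 rose and 1 fell. Of all genes tested, 3.78% rose at 6 h, and 5.58% rose and 7.75% fell at 24 h. The median response was 0.57 at 6 h and 0.04 at 24 h, against -0.02 and -0.01 over all genes tested. A lower response at 24 h was called for 13 of the 39, or 33.3%, and a higher one for none. Of these 13, 12 were in the class of 6 h only. HSPH1, an HSP110 nucleotide exchange factor (chromosome 13, 31134974 to 31162388, minus strand), measured 278 and 318 CPM with vehicle and 951 and 1024 CPM with T3 at 6 h. In the 24 h libraries it stood at 261 and 234 CPM labelled vehicle and 300.4 and 266 CPM labelled T3. The 6 h T3 libraries stood far above the other 6, which lay close together. The difference was -1.53 (SE 0.17, edgeR adjusted p = 0.000186).

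HSPA1A, the inducible HSP70 (chromosome 6, 31815464 to 31817946, plus strand), stood at 91.0 and 70.8 CPM with vehicle and 476 and 488 CPM with T3 at 6 h. At 24 h its level was lower in both groups, at 3.84 and 9.12 CPM labelled vehicle and 6.05 and 8.10 CPM labelled T3, which overlapped. The difference was -2.51 (SE 0.36, edgeR adjusted p = 0.00197), and the near-identical HSPA1B, which can share its reads, had a difference of -1.94 (SE 0.23, edgeR adjusted p = 0.000241). The HSPA1A call was lost without 24 h vehicle replicate 2 (adjusted p = 0.0635). DNAJA1, an HSP40 cochaperone, stood at 226 and 245 CPM with vehicle and 557 and 557 CPM with T3 at 6 h, and between 331 and 376 CPM in all 4 libraries at 24 h. Its difference was -1.20 (SE 0.16, edgeR adjusted p = 0.000821). HSP90AA1, the inducible HSP90, followed with 818 and 963 CPM with vehicle and 2207 and 2236 CPM with T3 at 6 h, and 1387 to 1722 CPM at 24 h. The remaining 6 h only members, given here as the whole set of calls, were CACYBP, HSPA8, HSPA4L, AHSA1, STIP1, DNAJB1 and FKBP4, with responses of 0.59 to 1.38 at 6 h and -0.27 to 0.30 at 24 h. HSPB1, a small heat shock protein, differed in the other manner: its response at 6 h was 0.49 and not called, and it fell by 1.24 at 24 h.

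The 8 subunits of TRiC, the ring-shaped chaperonin that folds actin and tubulin, rose in 4 cases at 6 h and had no called difference by edgeR, while DESeq2 called CCT5 and CCT6A, which are named here after their values were seen. Their median response was 0.39 at 6 h and -0.01 at 24 h. The count of 13 chaperones with a called difference was 7 without 6 h T3 replicate 1 and 6 without 6 h T3 replicate 2, and 15 with the trends of GC content and length removed. The 25 rises at 6 h became 9 and 16 without 6 h vehicle replicates 1 and 2, and 10 and 11 without 6 h T3 replicates 1 and 2.

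Promoters of 3 chaperone genes of the 6 h only class are shown because HSF1 binds inverted repeats of GAA. Pairs of such units, GAANNTTC or TTCNNGAA, were searched on both strands, on which each motif reads the same, and overlapping pairs were counted separately. Of the 13 genes with a called difference, 12 had windows, 20 in all, and 9 genes had a match in at least 1 window.
HSPA1A, chr6:31815293-31815592, plus strand: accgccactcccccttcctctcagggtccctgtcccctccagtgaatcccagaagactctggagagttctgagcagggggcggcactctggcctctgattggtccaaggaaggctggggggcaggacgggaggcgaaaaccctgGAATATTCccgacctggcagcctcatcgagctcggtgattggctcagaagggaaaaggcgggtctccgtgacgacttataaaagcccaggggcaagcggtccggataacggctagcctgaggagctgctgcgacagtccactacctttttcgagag
DNAJA1, chr9:33025023-33025322, plus strand: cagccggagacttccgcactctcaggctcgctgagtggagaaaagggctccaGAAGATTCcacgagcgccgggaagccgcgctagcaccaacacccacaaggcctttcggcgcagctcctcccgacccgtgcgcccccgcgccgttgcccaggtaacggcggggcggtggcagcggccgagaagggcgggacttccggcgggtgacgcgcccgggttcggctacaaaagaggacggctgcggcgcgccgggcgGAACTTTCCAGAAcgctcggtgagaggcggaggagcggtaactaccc
HSPA8, chr11:123062087-123062386, minus strand: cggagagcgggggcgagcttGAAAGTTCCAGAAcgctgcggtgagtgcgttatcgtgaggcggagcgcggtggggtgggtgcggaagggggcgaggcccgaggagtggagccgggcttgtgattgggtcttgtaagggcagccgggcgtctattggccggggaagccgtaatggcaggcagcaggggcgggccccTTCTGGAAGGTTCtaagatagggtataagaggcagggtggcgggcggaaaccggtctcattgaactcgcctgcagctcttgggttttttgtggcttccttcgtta
HSPA1A held 1 match, DNAJA1 3 and HSPA8 4, the last in 2 runs of overlapping pairs. Over the same 35116 windows as for the metal response element, at least 1 match was present in 13.5%, at least 3 in 0.194% and at least 4 in 0.0285%. Among the 20 windows of the called chaperones, 10 held a match.

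Genes of the integrated stress response were called lower more often at 6 h than at 24 h. ATF4, the transcription factor of this response, switches on genes of amino acid supply, redox balance and growth arrest when protein synthesis is restrained. At 6 h 17 of the 34 tested genes fell and none rose, while at 24 h 6 rose and 7 fell. Of all genes tested, 3.86% fell and 3.78% rose at 6 h, and 5.58% rose and 7.75% fell at 24 h. The median response was -0.63 at 6 h and -0.11 at 24 h. A higher response at 24 h was called for 12 of the 34, or 35.3%, and a lower one for none. The shares over all genes were 0.849% and 0.992%. TRIB3, a pseudokinase that restrains AKT (chromosome 20, 362835 to 397559, plus strand), stood at 310.2 and 254 CPM with vehicle and 104 and 98.2 CPM with T3 at 6 h, and at 163 and 116 CPM labelled vehicle and 131 and 136 CPM labelled T3 at 24 h. The groups were apart at 6 h and overlapped at 24 h. The difference was 1.43 (SE 0.22, edgeR adjusted p = 0.0022). DDIT4, an inhibitor of mTORC1, stood at 319 and 248 CPM with vehicle and 105 and 116 CPM with T3 at 6 h, and at 51.1 to 63.9 CPM in all 24 h libraries, where treatments overlapped. Its difference was 1.34 (SE 0.22, edgeR adjusted p = 0.00368). The class of 6 h only also held SESN2, STC2, DDIT3, CEBPB, CHAC1 and PSPH, with falls between 0.86 (PSPH) and 2.09 (CHAC1) on the log2 scale.

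GDF15, a secreted stress cytokine that ATF4 and p53 both induce, went in opposite directions. It stood at 55.5 and 55.6 CPM with vehicle and 17.0 and 18.5 CPM with T3 at 6 h, and at 8.13 and 9.57 CPM labelled vehicle and 16.4 and 15.6 CPM labelled T3 at 24 h. The T3 levels were close at the 2 times while the vehicle levels differed. The difference was 2.48 (SE 0.30, edgeR adjusted p = 0.000401). MTHFD2, an enzyme of the mitochondrial folate cycle, fell by 0.72 at 6 h and rose by 0.49 at 24 h (difference 1.22, SE 0.20, edgeR adjusted p = 0.00374). SLC7A11, the cystine importer, and CEBPG, a partner of ATF4, rose at 24 h, by 0.54 and 0.45, and had responses of -0.38 and -0.34 at 6 h that were not called. ATF4 itself was in the alike class, with 655 and 531 CPM with vehicle and 385 and 369 CPM with T3 at 6 h, and 378 and 357 CPM labelled vehicle and 256 and 299 CPM labelled T3 at 24 h. NUPR1, VEGFA and SHMT2 were alike and lower as well. This list depended on single 6 h libraries: the 12 calls became 7 and 4 without vehicle replicates 1 and 2, and 5 and 3 without T3 replicates 1 and 2. With the trends of GC content and length removed, 13 genes had a called difference, but only 1 rose and 1 fell at 24 h in place of 6 and 7.

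**Figure D2:**
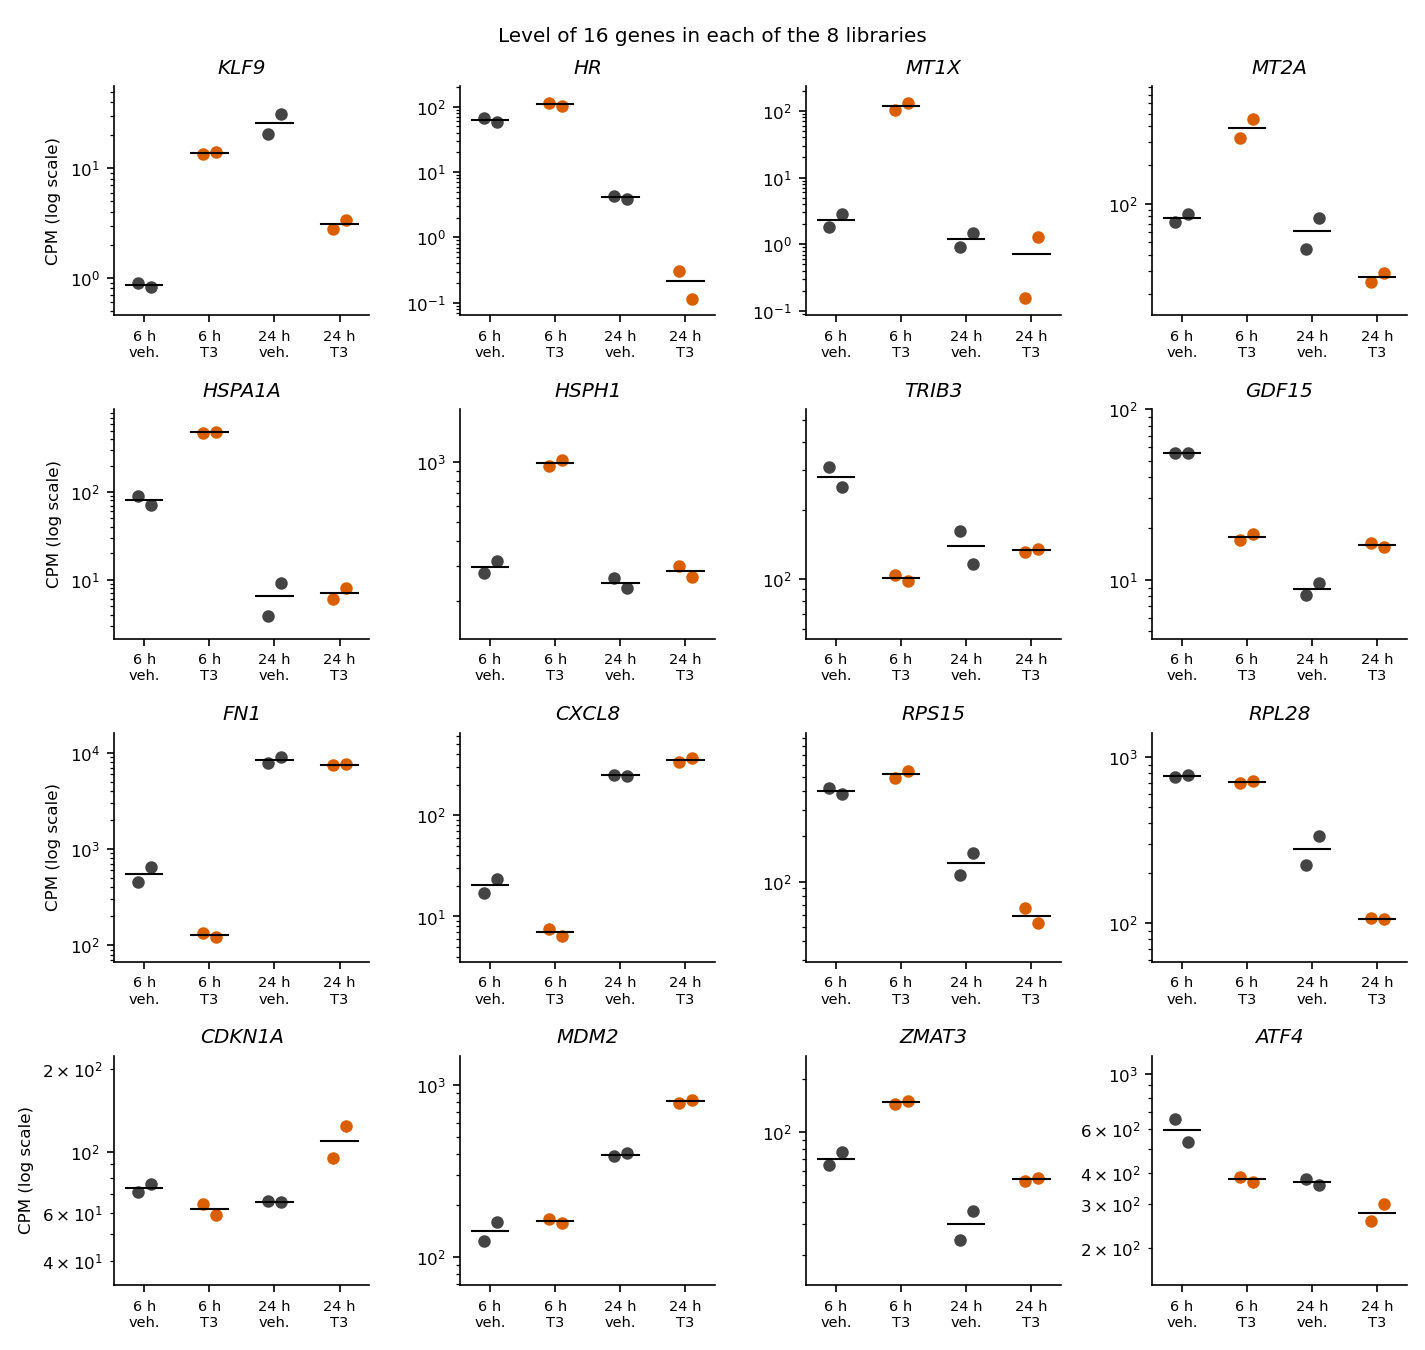
Levels of 16 genes in the 8 libraries (CPM on a log scale, with an axis of its own for each gene), vehicle in grey and T3 in orange as labelled, with a bar at the mean of the 2 libraries. MT1X, HSPA1A and HSPH1 stand apart in the 6 h T3 libraries, RPS15 and RPL28 are lowest in the 24 h libraries labelled T3, and KLF9 and GDF15 turn between the times.

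Cytosolic ribosomal proteins were called mostly at 24 h, and mostly as lower. Of 79 tested, 23 fell and 1 rose at 24 h, while 2 rose and 1 fell at 6 h, and the median response was 0.14 at 6 h and -0.23 at 24 h. The shares over all genes were 7.75% and 5.58% at 24 h, and 3.78% and 3.86% at 6 h, in the same order. A lower response at 24 h was called for 13, or 16.5%, 9 of the 31 small-subunit and 4 of the 46 large-subunit genes. RPS15 (chromosome 19, 1438358 to 1440494, plus strand) stood at 417 and 384 CPM with vehicle and 488 and 546 CPM with T3 at 6 h, and at 111 and 156 CPM labelled vehicle and 66.2 and 52.6 CPM labelled T3 at 24 h. The libraries labelled T3 were the lowest of the 8. The difference was -1.55 (SE 0.22, edgeR adjusted p = 0.00122). RPL28 fell at 24 h by 1.39, with a difference of -1.27 (SE 0.21, edgeR adjusted p = 0.00438). RPS26 and RPS15A were called at both times in opposite directions, with responses of 0.58 and 0.62 at 6 h and -0.81 and -0.52 at 24 h.

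The 13 ribosomal calls ran from 4 to 25 over the 8 fits without 1 library. They were 5 and 8 without 6 h vehicle replicates 1 and 2, 4 and 5 without 6 h T3 replicates 1 and 2, 21 and 25 without 24 h vehicle replicates 1 and 2, and 8 and 6 without 24 h T3 replicates 1 and 2. The 23 falls at 24 h became 15 and 12 without 24 h T3 replicates 1 and 2, and 13 with the trends of GC content and length removed. The 1 rise at 24 h became 12 without 24 h vehicle replicate 1. The 2 rises at 6 h became 16 and 11 without 24 h vehicle replicates 1 and 2, and 0 without 6 h vehicle replicate 1 or either 6 h T3 library. Ribosomal protein genes have many processed copies in the genome, which can take or lose reads. Mitochondrial ribosomal proteins, 77 tested, had a similar median difference of -0.34, yet only MRPS2 was called.

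Replication-dependent histones, which package new DNA in S phase and whose messages lack a poly(A) tail, were called lower mostly at 24 h. Of 53 tested, 28 fell and none rose at 24 h, while 6 fell and 1 rose at 6 h. Of all genes tested, 7.75% fell and 5.58% rose at 24 h, and 3.86% fell and 3.78% rose at 6 h. The list's median response was -0.15 at 6 h and -0.65 at 24 h. A lower response at 24 h was called for 5 and a higher one for 1. HIST1H4D was the 1 that rose at 6 h. It stood at 122 and 102 CPM with vehicle and 157 and 172 CPM with T3 at 6 h, and at 72.3 and 59.2 CPM labelled vehicle and 33.8 and 36.3 CPM labelled T3 at 24 h, so the groups were apart in opposite directions (difference -1.46, SE 0.21, edgeR adjusted p = 0.00124). HIST1H2AK fell by 1.78 at 24 h from a level of 9.72 and 7.62 CPM, whereas at 6 h it stood at 53.4 to 65.0 CPM in all libraries. HIST1H1D, a linker histone, fell at both times but more at 6 h, by 2.55 against 0.51. Histone copies are near identical, so single members are uncertain. The 5 lower calls became 3 without 6 h vehicle replicate 2, 2 and 1 without 6 h T3 replicates 1 and 2, and 12 and 13 without 24 h vehicle replicates 1 and 2. With the GC and length trends removed, 7 histones fell at 24 h in place of 28, and 5 fell at 6 h in place of 6, so the counts at the 2 times no longer stood apart.

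Targets of p53 rose at 24 h in 12 of 30 cases. p53 drives genes of cell cycle arrest, repair and apoptosis after DNA damage and other stresses. None of the 30 fell at 24 h, while 1 rose and 3 fell at 6 h, and the median response was 0.11 at 6 h and 0.44 at 24 h. Among all genes tested 5.58% rose and 7.75% fell at 24 h, and 3.78% rose and 3.86% fell at 6 h. A higher response at 24 h was called for 6 and a lower one for none. MDM2, the ligase that degrades p53 (chromosome 12, 68808176 to 68850686, plus strand), stood at 124 and 159 CPM with vehicle and 168 and 159 CPM with T3 at 6 h, which overlapped, and at 386 and 403 CPM labelled vehicle and 789 and 822 CPM labelled T3 at 24 h, which did not. Its difference was 0.82 (SE 0.18, edgeR adjusted p = 0.0266). CDKN1A, the cell cycle inhibitor p21, stood at 71.1 and 76.1 CPM with vehicle and 64.4 and 58.9 CPM with T3 at 6 h, and at 66.0 and 65.5 CPM labelled vehicle and 94.7 and 124 CPM labelled T3 at 24 h. The difference was 1.00 (SE 0.22, edgeR adjusted p = 0.0269). CCNG1, cyclin G1, was also called at 24 h only. GDF15 and SESN2, described with the ATF4 genes, belong to this list too. ZMAT3, an RNA-binding target, rose alike, by 1.07 and 0.83. The 6 calls became 3 and 1 without 6 h vehicle replicates 1 and 2, 2 and 1 without 6 h T3 replicates 1 and 2, and 2 without 24 h T3 replicate 2, and the 12 rises at 24 h became 6 without that last library.

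**Figure D3:**
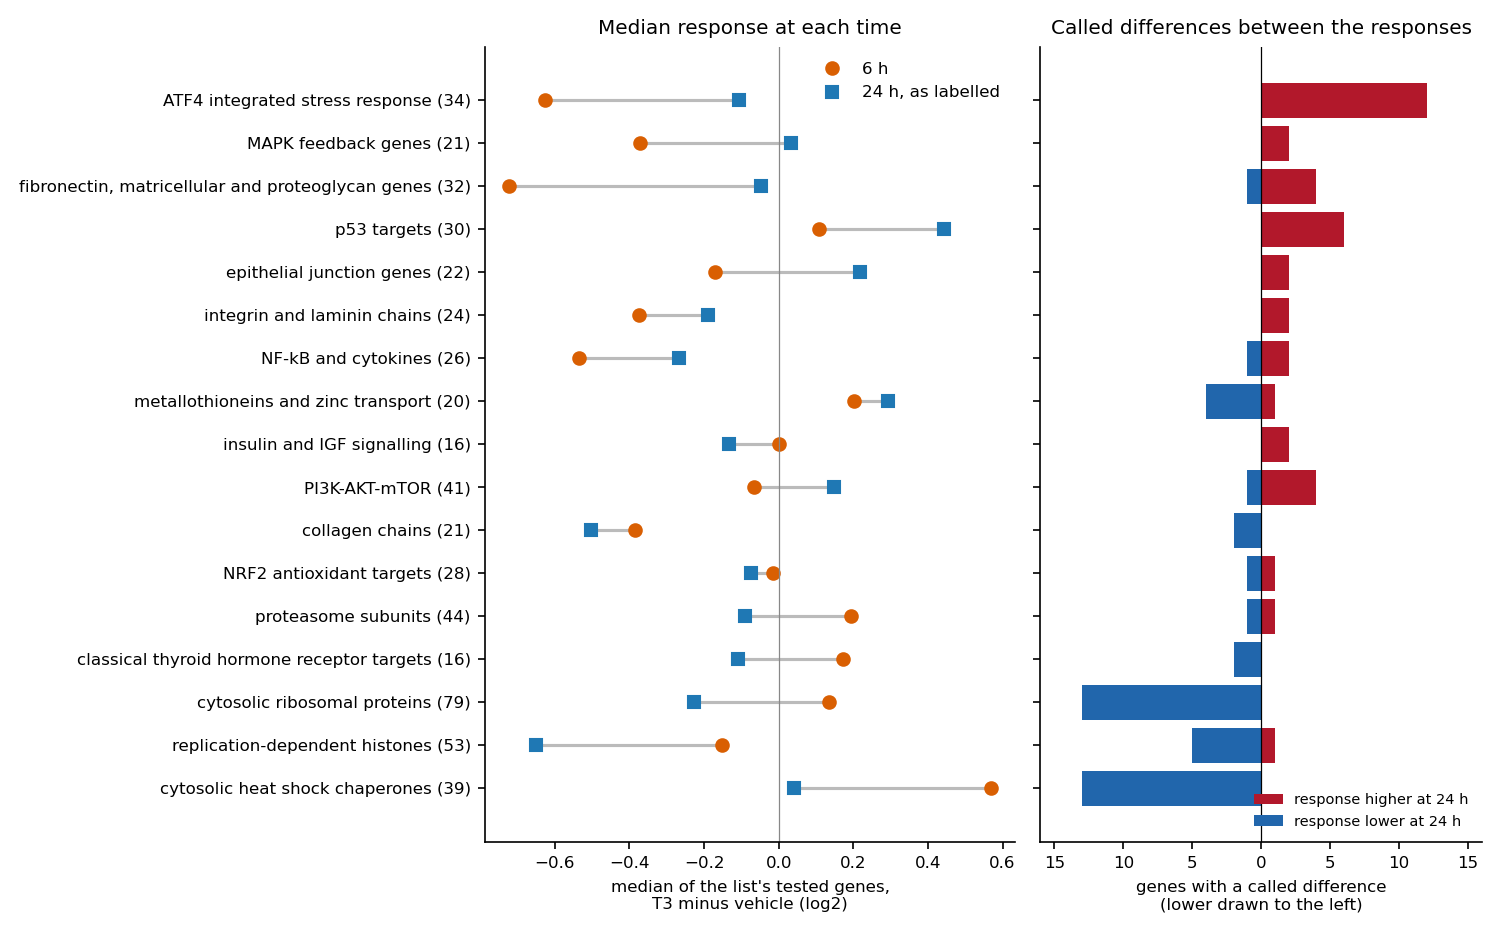
Function lists with at least 2 called differences, ordered by median difference, with the number of tested genes in brackets. The left panel gives the median T3 response of the list at 6 h and at 24 h as labelled (log2), and the right panel the number of genes whose response was called higher or lower at 24 h, reaching 13 for chaperones and ribosomal proteins and 12 for ATF4 genes.

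The 84 genes lower with T3 at 6 h only included many whose level was far higher in the 24 h libraries. FN1, fibronectin, a major matrix protein (chromosome 2, 215360440 to 215436172, minus strand), measured 457 and 646 CPM with vehicle and 133 and 122 CPM with T3 at 6 h. It stood at 7863 and 9006 CPM labelled vehicle and 7486 and 7561 CPM labelled T3 at 24 h. The treatments were apart at both times, but by little at 24 h, where the response of -0.16 was not called. The difference was 1.95 (SE 0.22, edgeR adjusted p = 0.000156). BCAT1, a branched-chain amino acid transaminase, fell from 44.0 and 61.8 to 14.1 and 12.5 CPM at 6 h and stood at 774 and 779 CPM labelled vehicle and 1007 and 1037 CPM labelled T3 at 24 h (difference 2.39, SE 0.22, edgeR adjusted p = 2e-05). MEG3, an imprinted noncoding RNA, had the same shape, with a log2 response of -2.27 at 6 h and 0.18 at 24 h.

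Across the 84 genes, 54 had a mean 24 h level at least 8-fold over the 6 h T3 level, against 1126 genes or 7.7% of all tested. Those 1126 genes as a whole had a median response of -1.37 at 6 h and 0.07 at 24 h, and held 67 of the 124 higher calls and none of the lower ones. A low T3 level is part of how they were picked. Picked instead by the 6 h vehicle level, 688 genes had a median of -0.38 at 6 h and 0.17 at 24 h, and held 28 higher calls and 1 lower call. The part of the level gap in these 6 h falls was not tested. Genes of the ATF4 list with a called difference had no such gap in any of the 12 cases, while 3 of the 4 higher calls among fibronectin, matricellular and proteoglycan genes had one.

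In that matrix list of 32 genes, 9 fell and 1 rose at 6 h, 4 fell and 1 rose at 24 h, and 5 had a called difference. Of all genes tested, 3.86% fell and 3.78% rose at 6 h, and 7.75% fell and 5.58% rose at 24 h. A called difference was present in 1.84%. The 4 higher calls became 2 without 6 h vehicle replicate 2 and 2 and 1 without 6 h T3 replicates 1 and 2. Besides FN1, TGFBI, a matrix protein induced by TGF-beta, stood at 258 and 271 CPM with vehicle and 138 and 131 CPM with T3 at 6 h, and between 446 and 486 CPM in all 24 h libraries. Its responses were -0.98 and 0.07, the latter not called (difference 1.04, SE 0.16, edgeR adjusted p = 0.00197). The TGFBI difference lost its call without 6 h T3 replicate 2. EFEMP2, an elastic fibre protein, was 6 h only as well, and VCAN, the proteoglycan versican, rose at 24 h only. NOV, a CCN family protein, was at 0 counts in both 24 h libraries labelled T3 against 12 counts in those labelled vehicle, which makes it at least 5.43-fold lower in the former against a floor of 3 counts over the group. Among collagens, COL9A2 fell at 24 h from 12.9 and 15.7 to 0.465 and 1.16 CPM and stood at 5.83 to 6.96 CPM at 6 h (difference -3.86, SE 0.61, edgeR adjusted p = 0.00307). COL4A3 had 18 counts labelled vehicle and 0 labelled T3 at 24 h, at least 8.15-fold lower. The NOV difference kept its call only without 24 h vehicle replicate 1, and the COL4A3 difference only without that library or without 24 h T3 replicate 1.

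The class lower at 6 h and higher at 24 h included a chemokine, tight junction proteins and a kinase feedback gene. CXCL8, the neutrophil chemokine interleukin 8, stood at 17.2 and 23.3 CPM with vehicle and 7.60 and 6.44 CPM with T3 at 6 h, and at 250.4 and 245 CPM labelled vehicle and 334 and 363 CPM labelled T3 at 24 h. The groups were apart in opposite directions (difference 2.02, SE 0.26, edgeR adjusted p = 0.000615). CLDN1, a tight junction claudin, stood at 102 and 115 CPM with vehicle and 57.9 and 59.1 CPM with T3 at 6 h, and at 215 and 275 CPM labelled vehicle and 356 and 378 CPM labelled T3 at 24 h. Its difference was 1.46 (SE 0.19, edgeR adjusted p = 0.000736). OCLN, the tight junction protein occludin, went the same way from 6 h levels of only 0.604 to 3.32 CPM (difference 3.03, SE 0.59, edgeR adjusted p = 0.0126). PHLDA1, a feedback gene of receptor tyrosine kinases, fell by 1.17 and rose by 0.78, and ETV5, another such gene, had a log2 response of -1.7001 at 6 h only. CXCL2, a related chemokine, also fell at 6 h only, by 1.87. IL32, a cytokine, fell at 24 h only, by 1.04. Of the 15 genes of this class, 7 had a 24 h level at least 8-fold over the 6 h T3 level.

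Genes that fell at 24 h only were 100, and 24 of them had a mean 6 h level at least 8-fold over the level in the 24 h libraries labelled T3, against 7.5% of all genes tested. A low 24 h T3 level is part of both the class and this gap, so nothing is read from the share. Over all 1098 genes with that gap the median 24 h response was -0.66 and 31 had a lower called difference, whereas 837 genes picked by the 24 h vehicle level had a median of 0.00 and 11 lower calls. PITX1, a homeobox transcription factor of hindlimb and pituitary, stood at 80.2 to 88.7 CPM in the 4 libraries of 6 h. At 24 h it stood at 2.71 and 2.69 CPM labelled vehicle and at 0.155 and 0 CPM labelled T3, the latter 1 count in all. The ratio at 24 h was 40.7, with a counting interval of 6.77 to 1660, and the difference was called in every fit without 1 library (edgeR adjusted p = 0.00121 with all 8). FARSA, a subunit of phenylalanyl-tRNA synthetase, fell by 1.30, and IFITM3, an interferon-induced membrane protein, by 1.27, both at 24 h only. The FARSA difference lost its call without 6 h vehicle replicate 2 or 6 h T3 replicate 2, and the IFITM3 difference without 6 h vehicle replicate 2, without either 6 h T3 library, or with the GC and length trends removed. AKT1S1, an inhibitory partner of mTORC1, fell by 1.37 at 24 h only, and the kinase subunit gene PIK3CD fell at both times, by 2.10 and 0.53. HMGCS1, an enzyme of cholesterol synthesis, rose at 6 h only, by 0.99. The differences of AKT1S1, PIK3CD and HMGCS1 lost the call without any 1 of the 6 h libraries. That of AKT1S1 was also lost without 24 h vehicle replicate 2 and with the GC and length trends removed. That of HMGCS1 was also lost without 24 h T3 replicate 1. Of the 24 tested integrin and laminin chains, 6 fell at 6 h and 6 at 24 h, against 3.86% and 7.75% of all genes. The integrin chains ITGAV and ITGB8 rose at 24 h only, by 0.61 and 0.58. Both differences lost the call without any 1 of the 6 h libraries, ITGAV also without 24 h T3 replicate 1, and ITGB8 also without 24 h vehicle replicate 2 and with the GC and length trends removed.

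The alike genes differed in GC content by direction. The 157 that rose at both times had a median exon GC content of 38.0% (quartiles 36.4 and 40.5%), the 78 that fell had 61.7% (56.8 and 64.4%), and all genes tested had 48.0%. PSMA1, a subunit of the proteasome core, was among the former and rose by 1.01 and 1.07, a difference of 0.05 with a 95% interval of -0.61 to 0.71. THRA, the receptor gene itself, was among those that fell, from 82.9 and 63.8 to 48.1 and 46.5 CPM at 6 h and from 25.8 and 32.1 to 18.3 and 17.7 CPM at 24 h as labelled. COL1A1, the main collagen chain, fell by 0.90 and 0.84 although its level was several-fold higher at 24 h. ATF4 and COL1A1 were chosen for naming after their values were seen.

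Over all genes in 5 bins of GC content, the poorest and richest bins had median responses of 0.30 and -0.31 at 6 h and of 0.33 and -0.53 at 24 h, and median differences of 0.02 and -0.19. With the trends of GC content and length removed, 5 of the 155 alike higher genes that could be fitted and 5 of the 78 alike lower ones stayed in their class. Their median responses shrank to 0.32 and 0.25 for the former and to -0.41 and -0.18 for the latter. Among the classes of a difference, 22 of 28 genes of 6 h only higher and 81 of 83 of 6 h only lower stayed, against 27 of 93 of 24 h only lower, whose median GC content was 59.1%, and 7 of 20 of 24 h only higher. A called difference was kept by 48 of those 93 and 19 of those 20. In the opposite classes 6 of 13 and 2 of 15 stayed, although 12 and 15 of them kept a called difference. With that correction 180 genes were higher and 124 lower, so that 59.2% of the calls were higher in place of 46.1%. The share was 29.5% without a filter on low counts and 27.1% without 24 h vehicle replicate 1.

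**Figure D4:**
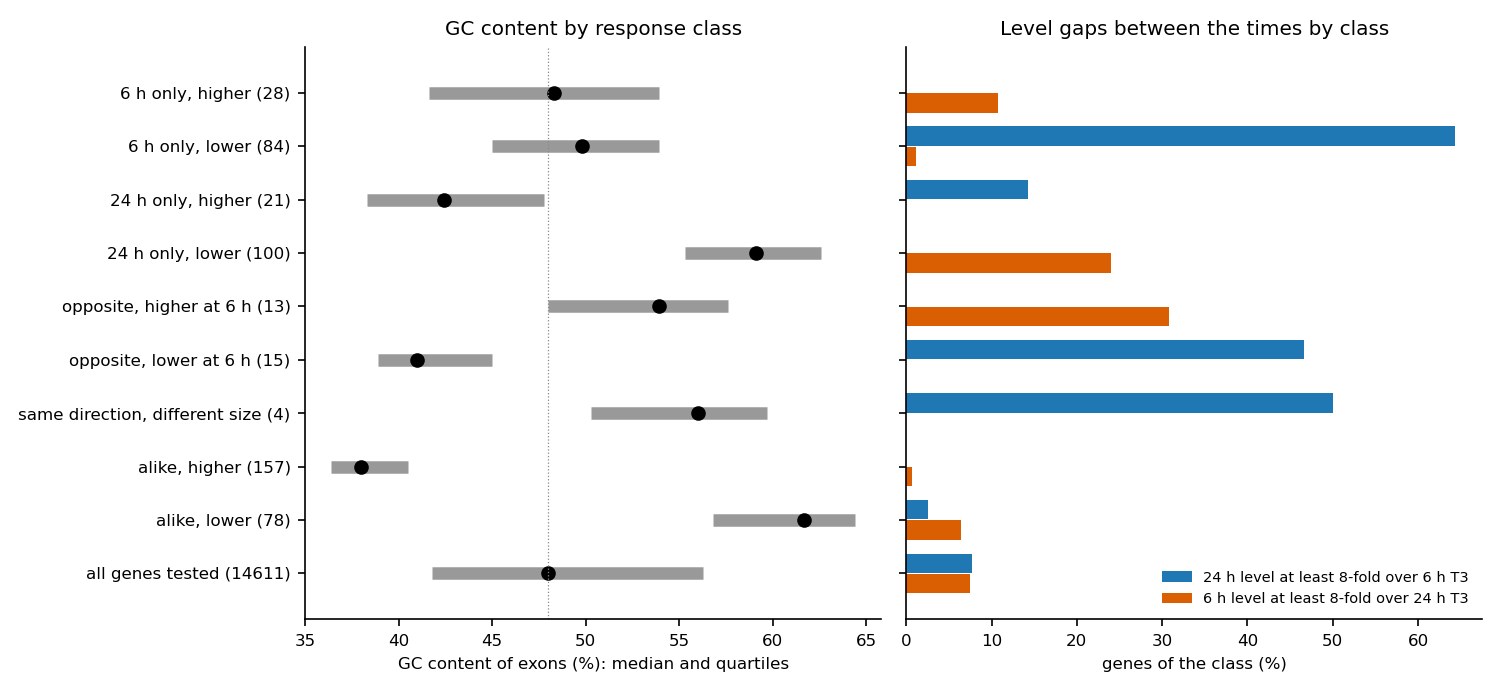
Left, GC content of exons in each response class (percent; dot, median; bar, quartiles; dotted line, median of all genes tested). Right, share of each class (percent) whose mean level at one time was at least 8-fold over the T3 level at the other. The alike classes lie at 38.0% and 61.7% GC, and the class lower at 6 h only has the longest bar at right, 54 of 84 genes.

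Several functions had no called difference by edgeR. With 1.84% of all genes called, a count of 0 in lists of this size is near the background and sets these functions apart from nothing. Counts at an unadjusted p under 0.05 are given without the share of all genes at that threshold, so nothing is read from them. Among 28 subunits of SWI/SNF chromatin remodelers, which the title of the series names, none had one (4 at an unadjusted p under 0.05, and none by DESeq2's adjusted p). SMARCA4, the ATPase BRG1, stood at 340 and 324 CPM with vehicle and 303 and 315 CPM with T3 at 6 h, and at 178 and 198 CPM labelled vehicle and 129 and 131 CPM labelled T3 at 24 h. It fell at 24 h, by 0.54, and its difference of -0.43 (95% interval -0.77 to -0.09) was not called (edgeR adjusted p = 0.187). Among 28 nuclear receptors and retinoid partners none was called (5 unadjusted, none by DESeq2). THRB, which encodes the TR-beta receptor, had responses of -0.66 and -0.03, neither called, from levels of 3.98 to 9.002 CPM at 6 h and 29.4 to 41.0 CPM at 24 h. Of 4 tested thyroid lineage genes, PAX8 fell by 1.47 at 6 h, and its difference of 1.21 was not called (edgeR adjusted p = 0.0951). Of 32 unfolded protein response genes in the endoplasmic reticulum 9 had an unadjusted p under 0.05 and none was called by edgeR, while DESeq2 called CALR. The 76 nuclear-encoded respiratory chain genes (8 unadjusted), 40 G2/M genes (8), 35 glycolysis and hypoxia genes (11) and 28 immediate early genes (11) had none by either tool. The 13 mitochondrially encoded genes had a median difference of -1.07 with none at an unadjusted p under 0.05, and their levels varied between replicates. MT-CO2, a subunit of cytochrome oxidase, stood at 2230 and 3732 CPM with vehicle at 6 h and at 2699 and 6671 CPM labelled vehicle at 24 h.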

How the data were processed

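RNA-seq libraries of 4 groups, 2 each, were read from the deposited read counts per gene symbol, 1 table per library. The submitters' processing notes name CASAVA 1.7, STAR 2.7, HTSeq and DESeq2 with build hg38, without roles. No annotation release or strand setting is given in the sources used here, so reads of overlapping and antisense genes may not be separated. The 5 summary rows of each table were dropped, which left 12.9 to 24.4% of the tabulated reads in 56832 gene rows.

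The test was edgeR 4.0.16 (R 4.3.3) on the counts (filterByExpr by group, TMM, robust quasi-likelihood fit of the 4 groups, 4 residual degrees of freedom, contrast of the 2 responses), and p-values were Benjamini-Hochberg adjusted over 14611 genes with a threshold of 0.05. Log2 fold changes are those of the fit. Level gaps were called at 8-fold. GC content and length came from GENCODE exons on GRCh38 for 12577 genes, and their trends were removed per library with a lowess span of 0.3. Positions are from that annotation and promoters from RefSeq. Methods were tested on simulated data. Alternatives were RLE size factors, DESeq2 1.42.0, no filter, genes expressed at both times, replicate blocks, the GC and length correction, a margin of 0.58 for alike, and leaving out each library. A fit that leaves 1 library in a group assumes that it varies like the others.

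Members, 46 function lists and 13 marker lists were chosen with earlier results of these data known. Named genes were the 10 largest called differences in each direction with at least 1 CPM at both times, the 5 smallest p-values, the 5 largest responses per class, up to 4 called members per list (otherwise up to 2), and 10 fixed genes. AKT1S1, CEBPB, CEBPG, CHAC1, DDIT3, HSP90AA1, HSPB1, MT1E, MT-CO2, NUPR1, PSPH, RPS15A, SHMT2, VCAN, VEGFA, ZMAT3, CALR, ATF4, COL1A1, CPS1, ALPP and the chaperones from CACYBP to FKBP4 fall outside that rule and were named after their values were seen. The other single marker genes given were also named after their values were seen. A few genes are left unreported.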

Additional observations from a re-analysis of the deposited data

Results flagged for a closer look

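The response to T3 differed between 24 h and 6 h, by the edgeR test of the difference itself, for 124 genes in the higher and 145 in the lower direction. Among the 82 named genes with such a call, 25 kept it in each of the 8 fits without 1 library and under the 8 other settings, and those reported here are given below for that reason. Groups of 2 libraries allow no comparison of 1 library's gap with the range of its group. By chi-square per degree of freedom the 24 h vehicle pair differed most, at 24.64 against 2.515 to 7.009 in the other groups. By correlation the pair labelled T3 at 24 h was lowest, at 0.977 against 0.982 for the 24 h vehicle pair. The counts of called differences moved when 24 h vehicle replicate 1 was left out.

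The response to T3 was lower at 24 h than at 6 h for the genes that follow, on the log2 scale. KLF9 had a difference of -7.03, MT1X of -6.34, PITX1 of -4.995, HR of -4.96 and MT1F of -4.85. COL9A2 followed with -3.86, NPTX1 with -3.81, MT2A with -3.53 and HEG1 with -2.58. Among chaperones HSPA1B differed by -1.94, HSPH1 by -1.53 and DNAJA1 by -1.20. Among ribosomal proteins RPS15 differed by -1.55, RPS26 by -1.39 and RPL28 by -1.27, and the histone HIST1H4D by -1.46. The response, though not always the level, was higher at 24 h for the stress genes GDF15 by 2.48, TRIB3 by 1.43 and DDIT4 by 1.34. BCAT1 differed by 2.39, CXCL8 by 2.02, FN1 by 1.95, ETV5 by 1.86 and CLDN1 by 1.46. KLF9 and HR go against the treatment labels at 24 h, and all directions at that time are as labelled.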

How the results depend on the processing

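All 269 called differences kept their direction in every fit without 1 library, and no named gene with a called difference reversed under any setting run. In the counts of these differences, higher and lower refer to the response to T3 at 24 h against 6 h, not to the level. The count of genes higher at 24 h, 124, ran from 22 to 203 over those fits and was 199 with no filter on low counts. The count lower, 145, ran from 27 to 547 and was 475 with no filter. Calls at 6 h, 1117, ran from 131 to 1681, and were 459 with the GC and length correction and 470 with the replicate block added to it. Calls at 24 h, 1948, ran from 1128 to 2056, and were 169 and 159 under those corrections.

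Without 1 library, 6 h only ran from 7 to 146 genes higher and from 17 to 118 lower, and 24 h only from 0 to 58 higher and from 15 to 316 lower. Opposite genes ran from 5 to 41 (higher at 6 h) and from 1 to 17 (lower at 6 h), genes of the same direction and different size from 0 to 10, and alike genes from 6 to 177 higher and from 4 to 98 lower. With no filter, 6 h only held 105 higher and 133 lower, 24 h only 306 lower, opposite 25 higher at 6 h, and same direction 9. With the GC and length correction, 6 h only held 44 higher and 129 lower, 24 h only 32 lower, opposite 7 and 2, same direction 2, and alike 5 higher and 5 lower. With the replicate block and that correction, these were 47 and 132, 29, 8 and 2, 2, and 5 and 4. An interval within 0.58 left 83 alike higher and 32 alike lower. The cause was not tested.

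DESeq2 called 128 higher and 166 lower and shared 247 of the 269 genes, RLE scaling shared 268, and the GC and length correction 207. Same-numbered replicates correlated in their deviations by -0.06 to 0.18. Each group gives a single deviation per gene, so this cannot decide whether the numbers pair the libraries. With a replicate block 144 genes were higher and 177 lower, with a block within each time 119 and 127, and 102 alike higher genes in place of 157. Depth limits genes near 3 counts, 0.366 to 1.19 CPM.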
